A study of Homo sapiens with 6 samples.

Results

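The genes described here are the nuclear-encoded subunits of the oxidative phosphorylation system and a few genes that share their names. They were chosen by symbol: the NDUFA, NDUFB, NDUFC, NDUFS and NDUFV series of complex I, the SDH genes of complex II, genes starting with UQCR for complex III, COX4 to COX8 for complex IV and the ATP5 genes for complex V. Of 86 such symbols, 76 had a mean of at least 1 FPKM (fragments per kilobase of transcript and sequencing depth) over the 6 libraries, among 11865 genes at that level and 24551 symbols in all. By the spelling of the symbol, 36 genes were assigned to complex I, 4 to complex II, 8 to complex III, 11 to complex IV and 17 to complex V. The name alone thus placed NDUFA4 in complex I, COX7A2L in complex IV, and ATP5S and ATP5SL in complex V. Counts, sums and medians by complex below follow this assignment.

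Polyadenylated RNA was sequenced from cells of 2 cancer lines, the prostate carcinoma line DU145 and the renal cell adenocarcinoma line 769-P. In each line there was 1 library from cells given a negative control siRNA (NC), 1 from cells given SPOP siRNA 1 and 1 from cells given SPOP siRNA 2. No other allele or agent was named for any of the 6 libraries, and no time after transfection was given for the RNA. SPOP is the substrate-binding subunit of a cullin 3 ubiquitin ligase, and the comparison asks which transcripts changed when it was depleted in each cancer type. Each line stands for 1 cancer of its tissue, each control group has 1 library, and the siRNA pair of a line served as its replicates, so p-values measure the spread between libraries that differ in siRNA.

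Complexes I to IV sit in the inner mitochondrial membrane and pass electrons from NADH and succinate to oxygen, and complexes I, III and IV pump protons as they do so. Complex V, the ATP synthase, lets the protons back through a rotating ring of c subunits and makes ATP. Most of the subunits are encoded in the nucleus, translated in the cytosol and imported. A small core of subunits is encoded by mitochondrial DNA, and those genes were not analysed here.

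SPOP itself was left at 13.2% and 12.0% of the control value with siRNA 1 and siRNA 2 in 769-P and at 17.2% and 18.4% in DU145, so both siRNAs depleted the target in both lines. The renal gene PAX8 was high in 769-P, between 105.6 and 125.5 FPKM against 1.10 to 1.47 in DU145, but CA9 was listed at 0 in all 769-P libraries. In DU145 the prostate genes KLK3 and HOXB13 were at 0.312 FPKM or below, while KRT8 and KRT18 were high in both lines. The immune, endothelial and fibroblast markers were at or near 0 apart from CD68 and COL1A1. Olfactory receptor genes gave values above 0 in the DU145 control for 287 of the 366 listed (mean 0.345 FPKM) and in the siRNA 2 library of 769-P for 237 (mean 0.227 FPKM), against 3 to 5 in the other libraries. Subtracting that mean from every value changed no count of members past 1.5-fold. The depth estimated from low values lay between 0.683 and 1.41 times that of the 769-P control.

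The respiratory genes were abundant and short. Their median level was 85.7 FPKM, against 9.65 FPKM for all genes tested, and their median transcript was 830.5 bases long, against 3166 bases. The 76 genes together took 2.30%, 2.18% and 2.24% of all FPKM in the 769-P control, siRNA 1 and siRNA 2 libraries, and 2.20%, 1.97% and 2.06% in those of DU145. By level per length, the most abundant members were ATP5B, the catalytic beta subunit of complex V (mean 523 FPKM), and COX8A, a small complex IV subunit (435 FPKM). UQCRH, the hinge protein of complex III, had 250.5 FPKM, NDUFS8, an iron-sulfur subunit of complex I, had 211 FPKM, and SDHA, the flavoprotein of complex II, had 84.3 FPKM. The lowest member was NDUFA5 at a mean of 3.23 FPKM, and the highest gene left out was UQCRHL, a copy of UQCRH, at 0.716 FPKM.

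Tissue-restricted isoforms were near the floor in both lines. COX4I2, the lung isoform of subunit 4, and COX7B2 were listed at 0 in every library, whereas the ubiquitous COX4I1 had 349 and 306 FPKM in the controls of 769-P and DU145. The muscle isoforms COX6A2 and COX7A1 and the testis isoforms COX6B2 and COX8C had means between 0.131 and 0.446 FPKM. UQCRHL, the ATP5EP2 and UQCRBP1 loci and ATP5L2 made up the rest of the 10 symbols left out, and values of UQCRHL cannot be separated with certainty from those of UQCRH, whose sequence is nearly the same. NDUFA4L2, an isoform of NDUFA4 that does not carry the name pattern, was listed at 0 in all 769-P libraries and between 1.78 and 4.21 FPKM in DU145.

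The first question was how each complex changed with each SPOP siRNA. As a group the respiratory genes moved little: the median log2 fold change on log2(FPKM + 1) in 769-P was -0.01 for siRNA 1 and -0.09 for siRNA 2, and in DU145 -0.05 and 0.09. For all genes tested these medians were 0.00, -0.06, 0.07 and 0.12. Complex V in 769-P lay lowest, with medians of -0.17 and -0.24, and complex II in DU145 lay highest, with 0.15 and 0.44. Complexes I and III had medians between -0.08 and 0.10 with either siRNA in either line. Complex IV lay at -0.02 and -0.09 in 769-P and at -0.15 and 0.03 in DU145.

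**Figure D1:**
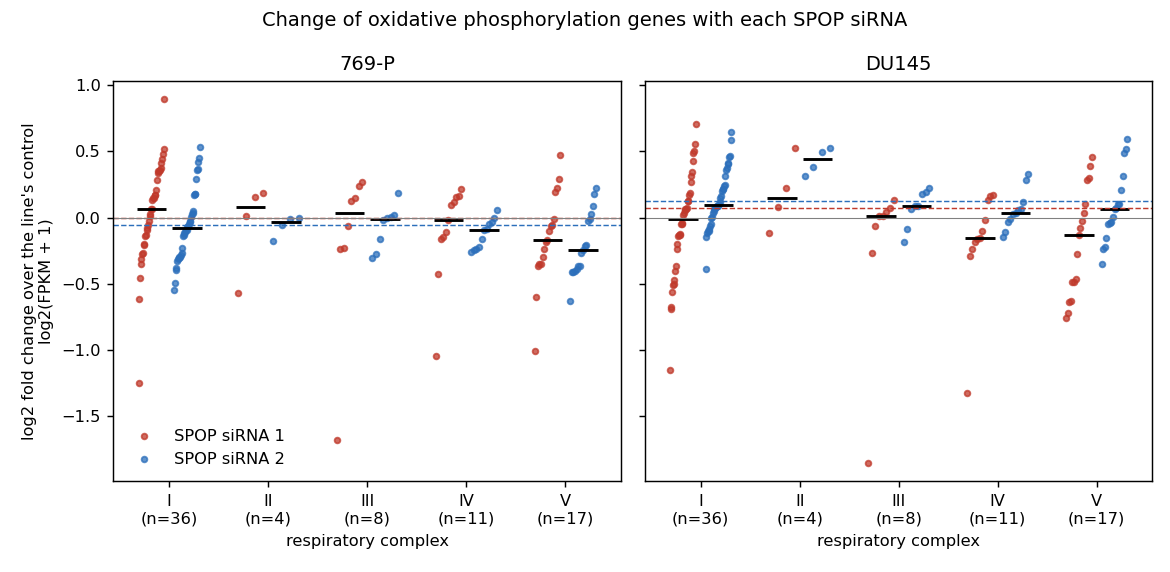
Log2 fold change of each of the 76 genes over the control of its line, on log2(FPKM + 1), by complex, with siRNA 1 in red and siRNA 2 in blue. Black bars are medians over the genes of a complex and dashed lines are the medians over all genes tested. Most points lie within 0.5 of 0, and a few genes, all with siRNA 1, lie below -1.

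Counted by sign, 15 of the 76 genes were higher and 33 were lower with both siRNAs in 769-P, where 31.5% and 39.5% of all genes tested were. In DU145 28 were higher and 14 lower, against 43.5% and 22.2% of all genes. Most of these differences were small, and the DU145 split turned over to 16 higher and 40 lower when each library was centred on its median log2 level over all genes. In 769-P the same centring raised the count of higher genes from 15 to 31. That centring shifted every fold change by 0.03 (siRNA 1) and 0.13 (siRNA 2) in 769-P and by -0.11 and -0.14 in DU145. It did so for all genes tested, and the shares of all genes above are without centring. Shares of all genes after centring were not counted, so the centred counts cannot be set against them. Both siRNAs of a line share its control library, so these sign counts are a description.

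In 769-P 11 of the 17 complex V genes (64.7%) were lower with both siRNAs, against 39.5% of all genes. Higher with both were 2 (11.8%), against 31.5% of all genes. The summed level of complex V was 3230 FPKM in the 769-P control, 2805 FPKM with siRNA 1 and 2715 FPKM with siRNA 2. In DU145 the sum was 2735 FPKM in the control, 2299 FPKM with siRNA 1 and 2833 FPKM with siRNA 2. There 6 of the 17 genes (35.3%) were lower with both siRNAs, against 22.2% of all genes, and 5 (29.4%) higher, against 43.5%. By summed FPKM both siRNA libraries lay under the control in 769-P and only the siRNA 1 library did in DU145. As a share of all FPKM of the library, however, complex V took 0.757%, 0.633% and 0.665% in 769-P and 0.687%, 0.562% and 0.632% in DU145, so that on this scale both siRNA libraries lay under the control in both lines. ATP5B stood at 590, 518 and 444 FPKM in 769-P and at 525, 498 and 564 FPKM in DU145, in the same order of libraries. ATP5D, the delta subunit of the central stalk, had the lowest mean log2 fold change of complex V in DU145, with 303 FPKM in the control, 178 FPKM with siRNA 1 and 238 FPKM with siRNA 2. ATP5SL, whose product acts in complex I assembly despite its name, had the highest mean in 769-P, with log2 fold changes of 0.47 and -0.01.

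**Figure D2:**
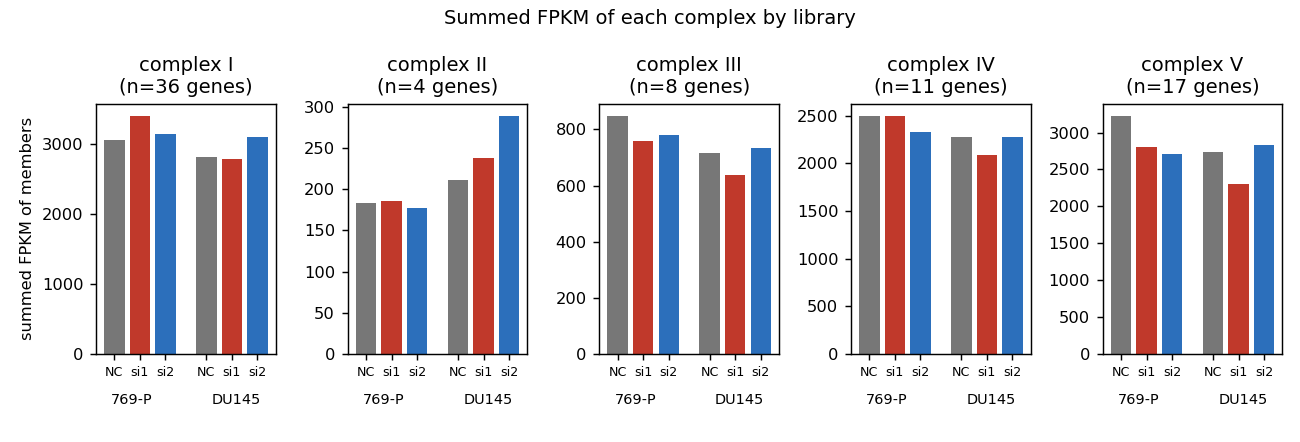
Summed FPKM of the genes of each complex in each of the 6 libraries, 1 library per bar. The complex V sum is highest in the 769-P control (3230 FPKM) and lowest in DU145 with siRNA 1 (2299 FPKM), and the complex II sum is highest in DU145 with siRNA 2 (289.7 FPKM).

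Few genes passed 1.5-fold the same way with siRNA 1 and siRNA 2 of a line. In 769-P there were 0 higher and 1 lower of the 76 genes, against 3.6% and 3.73% of all genes tested, and in DU145 1 higher and 0 lower, against 4.72% and 1.19%. At 2-fold there was none in either line, against 0.657% higher and 0.565% lower of all genes in 769-P and 0.666% and 0.329% in DU145. The share of respiratory genes was therefore at or under that of all genes in each line and direction.

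The gene that passed in 769-P was ATP5H (now ATP5PD), the d subunit of the peripheral stalk that holds the catalytic head of complex V still, on chromosome 17 of GRCh37 from 73034958 to 73043080. Its 769-P values were 220.0 FPKM with the control siRNA, 145 FPKM with siRNA 1 and 142 FPKM with siRNA 2, log2 fold changes of -0.60 and -0.63. Its DU145 values were 155, 93.9 and 132 FPKM in the same order, or -0.72 and -0.24. All 4 siRNA libraries lay under their control. The limma estimate was -0.61 (standard error 0.26, adjusted p = 0.709) in 769-P and -0.48 (standard error 0.26, adjusted p = 0.817) in DU145. Centred on the median of all genes, its mean in 769-P was -0.53 and the call at 1.5-fold was lost.

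Across all 4 siRNA libraries 10 genes were higher and 8 lower, against 20.1% and 13.6% of all genes, while 4 were higher in DU145 and lower in 769-P with both siRNAs and 1 (COX8A) the reverse, against 10.4% and 3.39%. Of the 10, 7 belonged to complex I, among them NDUFS8, NDUFB7 and NDUFA1. That is 19.4% of the 36 complex I genes, near the 20.1% of all genes, while 1 (2.78%) was lower. Of the 8, 5 belonged to complex V, among them ATP5H, ATP5D, ATP5C1 (the gamma subunit) and ATP5G3. That is 29.4% of the 17 complex V genes, against 13.6% of all genes, while 2 (11.8%) were higher. NDUFB7, an accessory subunit on the intermembrane side of complex I, had 148, 188 and 203 FPKM in the control, siRNA 1 and siRNA 2 libraries of 769-P and 89.8, 126 and 135 FPKM in those of DU145. The limma estimate for NDUFB7 in DU145 was 0.53 (standard error 0.20, unadjusted p = 0.0390, adjusted p = 0.786).

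By limma with Benjamini-Hochberg adjustment over all genes tested, 0 of the 76 genes passed an adjusted p of 0.05 for the knockdown in either line, where 0.135% of all genes passed in DU145 and 0.101% in 769-P. At an unadjusted p under 0.05 there were 2 of the 76 genes in DU145, NDUFB7 among them, and 0 in 769-P, against 6.27% and 6.97% of all genes. For the difference of the knockdown between the lines 0 genes passed at either level, against 0.169% of all genes at the adjusted and 2.74% at the unadjusted level. SPOP, at log2 fold changes of -2.35 in 769-P and -2.15 in DU145, did not pass either (adjusted p = 0.0948 and 0.134 by limma), so a missing call in this fit does not show that a gene was unchanged.

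The largest changes of respiratory genes were seen with siRNA 1 and not with siRNA 2. With siRNA 1 alone 6 of the 76 genes were at least 1.5-fold lower in 769-P and 9 in DU145, against 9.84% and 7.42% of all genes. With siRNA 2 alone these numbers were 1 in 769-P (ATP5H) and 0 in DU145, against 8.37% and 3.73%. Higher by 1.5-fold were 1 gene with siRNA 1 in each line, against 10.3% in 769-P and 12.0% in DU145, and 0 in 769-P and 2 in DU145 (ATP5S among them) with siRNA 2, against 6.15% and 11.3%. Lower with siRNA 1 in both lines were 4 of the 76 genes, UQCRFS1, COX7A2L, ATP5G1 and ATP5H, against 2.96% of all genes, and 1 was higher, against 3.86%. With siRNA 2 there was none in either direction in both lines, against 1.13% lower and 2.31% higher of all genes.

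UQCRFS1 encodes the Rieske iron-sulfur protein, the mobile arm of complex III that takes electrons from ubiquinol to cytochrome c1, and lies on chromosome 19 of GRCh37 from 29696227 to 29704058. The level in 769-P was 116 FPKM with the control siRNA, 35.5 FPKM with siRNA 1 and 104 FPKM with siRNA 2. The level in DU145 was 106, 28.6 and 113 FPKM in the same order. The siRNA 1 libraries therefore kept 30.6% and 27.0% of the control and the siRNA 2 libraries 89.4% and 106%. UQCRFS1 was named for the lowest mean change of complex III in both lines, so this gap is a description. The other 7 genes of complex III had log2 fold changes between -0.27 and 0.27 with siRNA 1.

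COX7A2L, also known as SCAF1, is named like a complex IV subunit but its product ties complexes III and IV together in supercomplexes. It lies on chromosome 2 from 42560686 to 42652228. Control, siRNA 1 and siRNA 2 libraries had 47.8, 22.7 and 42.7 FPKM in 769-P and 49.4, 19.1 and 60.5 FPKM in DU145. As with UQCRFS1, both siRNA 1 libraries lay under every other library. COX7A2L also had the lowest mean change of its group in both lines, so this too is a description. Its paralogue COX7A2, a true complex IV subunit, had 84.8, 76.4 and 82.6 FPKM in 769-P and 56.7, 64.0 and 71.5 FPKM in DU145, with no such drop.

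ATP5G1, ATP5G2 and ATP5G3 encode the same mature c subunit of the rotor ring with different import sequences. ATP5G1 (now ATP5MC1, chromosome 17 from 46970127 to 46973233) stood at 168 FPKM in 769-P with the control siRNA, at 83.0 FPKM with siRNA 1 and at 171 FPKM with siRNA 2, and at 177, 114 and 172 FPKM in DU145. ATP5G2 had log2 fold changes of 0.29 and 0.09 in 769-P and of 0.29 and 0.32 in DU145, and ATP5G3 had -0.37 and -0.41 in 769-P and -0.48 and -0.16 in DU145. The c subunit genes thus differed in sign.

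A limma fit in which siRNA numbers form a replicate block gives the difference between siRNA 2 and siRNA 1 over both lines. It was added after these values were seen. The log2 difference was 1.73 for UQCRFS1 (standard error 0.18, unadjusted p = 0.000203, adjusted p = 0.221). For COX7A2L it was 1.25 (adjusted p = 0.247) and for ATP5G1 0.81 (adjusted p = 0.296). By limma 0 of the 76 genes passed an adjusted p of 0.05, against 0.0169% of all genes, and 10 had an unadjusted p under 0.05, against 12.2% of all genes, 7 of them higher and 3 lower with siRNA 2. Over the 76 genes the difference between the siRNAs in 769-P and that in DU145 had a Pearson r of 0.668, and over all 11865 genes r was 0.27. These are correlations across genes, which are not independent replicates. The 76 genes include UQCRFS1, COX7A2L and ATP5G1, which were already singled out for this difference. They are also more abundant than all genes tested (median 85.7 against 9.65 FPKM). How far either point bears on r was not tested.

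**Figure D3:**
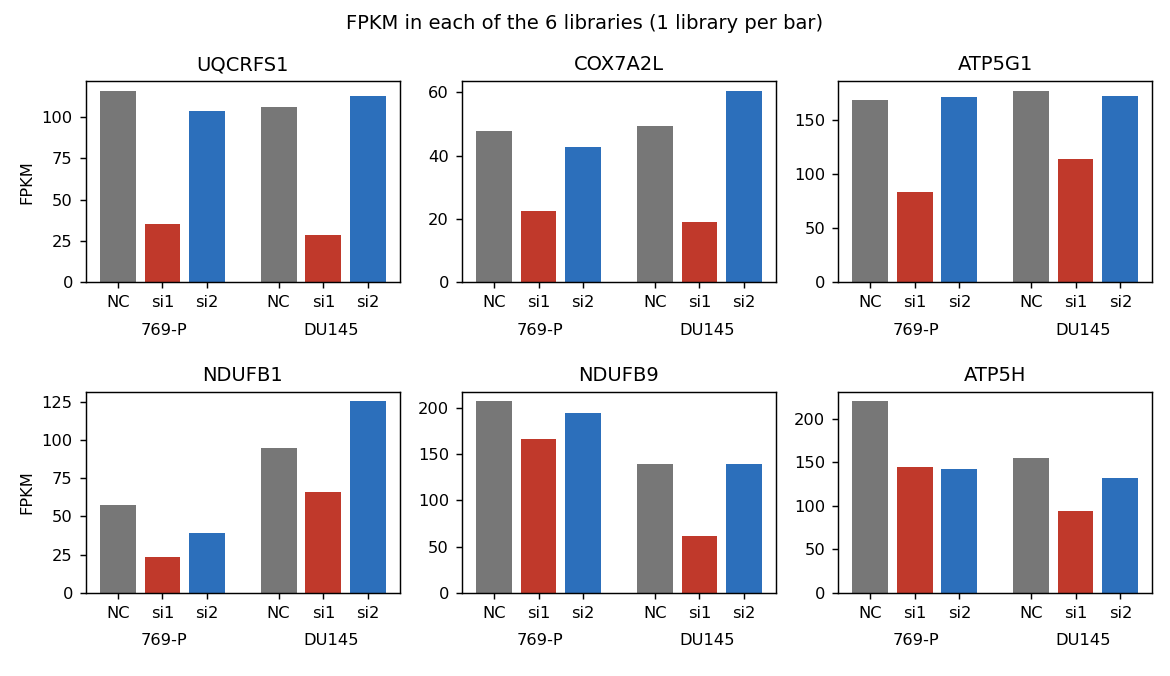
FPKM of UQCRFS1, COX7A2L, ATP5G1, NDUFB1, NDUFB9 and ATP5H in each of the 6 libraries, 1 library per bar (NC, negative control siRNA, in grey, si1, SPOP siRNA 1, in red, si2, SPOP siRNA 2, in blue). UQCRFS1 is at 35.5 and 28.6 FPKM with siRNA 1 and at 104 FPKM or above in the other libraries.

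In complex I, NDUFB1 and NDUFB9 had the lowest mean log2 fold changes, each in one line. NDUFB1, an accessory subunit of the membrane arm, had 57.5, 23.6 and 39.0 FPKM in the 769-P control, siRNA 1 and siRNA 2 libraries and 94.4, 65.9 and 125 FPKM in DU145. The siRNA 1 libraries thus lay under the control in both lines, at 41.0% in 769-P and 69.8% in DU145, and the siRNA 2 library of 769-P lay at 67.8%. Its mean log2 fold change was the lowest of complex I in 769-P, at -0.90. NDUFB9, another accessory subunit there, had the lowest in DU145, with 139, 61.9 and 139 FPKM, and in 769-P it had 207, 167 and 194 FPKM. The siRNA 2 library of DU145 stood at the level of the control for NDUFB9 and above it for NDUFB1.

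**Figure D4:**
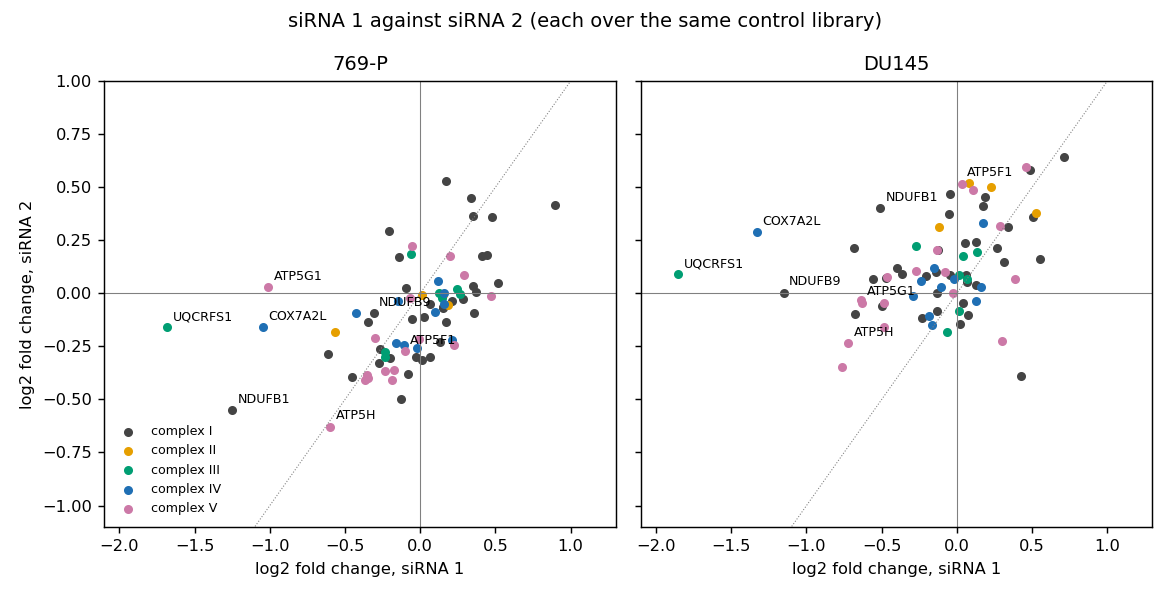
Log2 fold change with siRNA 1 (horizontal) against siRNA 2 (vertical) for the 76 genes in 769-P and DU145, coloured by complex. The axes differ in scale, the dotted line marks equal changes, and both axes share the control of the line. UQCRFS1 and COX7A2L lie far left and near 0 on the vertical axis in both lines (-1.68 and -1.85 with siRNA 1 for UQCRFS1).

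The SDH genes of complex II were examined singly. SDHA had 64.7, 72.0 and 64.2 FPKM in the 769-P control, siRNA 1 and siRNA 2 libraries and 85.0, 99.4 and 120 FPKM in DU145. SDHB, the iron-sulfur subunit, had 44.6, 44.9 and 44.4 FPKM in 769-P and 50.8, 53.7 and 73.4 FPKM in DU145. Both genes were flat in 769-P and highest with siRNA 2 in DU145. SDHC, a membrane anchor, had the highest mean log2 fold change of the complex in DU145 (0.45, standard error 0.22, adjusted p = 0.815 by limma), and SDHD, its partner in the membrane, had the lowest in both lines, at -0.37 in 769-P and 0.10 in DU145.

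The upstream sequences of the genes that were at least 1.5-fold lower with siRNA 1 in both lines are shown because these genes moved together. Windows of 250 bases before to 50 bases after the start were taken from RefSeq on GRCh38.p14 and searched on both strands for GCGCANGCGC (NRF1), CCGGAAG (the GABP and other ETS factors) and AAGATGGC (YY1), factors known for binding respiratory genes, of which the latter pair can overlap by AAG. Below are the 250 bases before each start, from 5′ to 3′ on the strand of the gene, with capitals marking a match. The windows lie at chr19:29213152-29213401 (minus strand) for UQCRFS1, chr2:42361218-42361467 (minus) for COX7A2L, chr17:48892537-48892786 (plus) for ATP5G1 and chr17:75046970-75047219 (minus) for ATP5H.
UQCRFS1: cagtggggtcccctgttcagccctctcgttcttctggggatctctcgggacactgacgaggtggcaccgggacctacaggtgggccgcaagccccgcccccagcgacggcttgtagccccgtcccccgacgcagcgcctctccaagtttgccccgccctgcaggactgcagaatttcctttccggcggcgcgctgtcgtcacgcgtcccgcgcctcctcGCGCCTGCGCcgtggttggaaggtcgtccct
COX7A2L: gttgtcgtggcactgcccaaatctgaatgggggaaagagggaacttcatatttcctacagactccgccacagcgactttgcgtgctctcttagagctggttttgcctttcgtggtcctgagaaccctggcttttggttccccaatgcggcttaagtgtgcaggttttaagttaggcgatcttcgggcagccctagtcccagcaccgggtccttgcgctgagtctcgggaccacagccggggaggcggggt
ATP5G1: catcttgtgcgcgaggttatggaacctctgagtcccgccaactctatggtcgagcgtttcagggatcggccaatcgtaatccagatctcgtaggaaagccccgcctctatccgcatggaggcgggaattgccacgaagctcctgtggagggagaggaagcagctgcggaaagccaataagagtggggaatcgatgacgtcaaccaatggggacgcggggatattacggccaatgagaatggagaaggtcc
ATP5H: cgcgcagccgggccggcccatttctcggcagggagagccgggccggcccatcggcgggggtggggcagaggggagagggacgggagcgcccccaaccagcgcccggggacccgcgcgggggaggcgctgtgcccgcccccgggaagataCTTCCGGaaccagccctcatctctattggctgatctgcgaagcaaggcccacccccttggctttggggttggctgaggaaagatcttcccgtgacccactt
UQCRFS1 held an NRF1 match and ATP5H an ETS match, both on the opposite strand, and the other two held none of the letters searched.

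Of the 76 genes 63 had a promoter in the table. The NRF1 letters stood in 23.8% of them, against 12.3% of the promoters of genes tested and 6.28% of all promoters. The ETS letters stood in 30.2%, against 20.1% and 10.7%, and the YY1 letters in 17.5%, against 5.75% and 3.03%. At least 1 motif was found in 36 of the 63 promoters, or 57.1%, against 33.3% and 17.9%. The 36 genes with a match had median log2 fold changes of 0.01 and -0.07 in 769-P and -0.02 and 0.09 in DU145 with siRNA 1 and siRNA 2, and the 27 without had -0.02 and -0.11, and -0.13 and 0.08. Of these siRNA contrasts, the sets differed most with siRNA 1 in DU145. They lay further apart between the lines, with median differences, DU145 minus 769-P, of -0.07 with a match and -0.26 without.

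More of these genes were called between the lines than for the knockdown, and the same held for all genes tested. Among all genes 42.1% were called between lines, against 0.135% for the knockdown in DU145 and 0.101% in 769-P. These contrasts are unlike in precision, since the line estimate uses all 6 libraries and each knockdown estimate has 1 control library. Comparing DU145 with 769-P over the control and siRNA groups, 20 of the 76 genes passed an adjusted p of 0.05 by limma, or 26.3%, against 42.1% of all genes tested, 6 higher in DU145 and 14 lower. In this contrast the control library of a line weighs as much as its siRNA libraries together. Limma differences therefore need not equal the means over the control, siRNA 1 and siRNA 2 pairs. Without siRNA 1 of 769-P there were 6 calls, without siRNA 2 of 769-P 7 and without siRNA 1 of DU145 11. With median centring there were 32 calls, 3 higher and 29 lower. That centring shifted the mean difference over the control, siRNA 1 and siRNA 2 pairs by -0.20 for every gene. The limma difference shifted less, for SDHA from 0.534 to 0.368. With quantile normalization there were 32 calls as well, 9 higher and 23 lower. Among all 11865 genes the main fit called 26.8% higher and 15.3% lower. Over all genes, median centring called 2701 higher and 2602 lower, 44.7% together. Quantile normalization called 2603 higher and 2715 lower, 44.8% together. The median log2 difference, DU145 minus 769-P, was -0.19 over the 76 genes and 0.16 over all genes. It was -0.25 for complex I, 0.48 for complex II, -0.11 for complex III, -0.28 for complex IV and -0.04 for complex V. The libraries of a line differ in treatment and come from 1 line, so this contrast compares these lines and not prostate with kidney.

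In complex V, 4 genes passed as lower in DU145 and 1 as higher. ATP5A1, the alpha subunit, had 346, 294 and 268 FPKM in 769-P and 136, 112 and 146 FPKM in DU145 (limma log2 difference -1.24, standard error 0.17, adjusted p = 0.00369). ATP5G3 had 78.6, 60.7 and 58.9 FPKM in 769-P and 28.7, 20.2 and 25.6 FPKM in DU145 (-1.39, standard error 0.17, adjusted p = 0.00229). For both genes the lines did not overlap. Both are among the called genes, and the share of all genes without overlap was not counted, so this is a description. ATP5F1, the b subunit of the peripheral stalk, differed by -1.09 (adjusted p = 0.00843) and ATP5C1 by -0.73 (adjusted p = 0.0240). ATP5S, or DMAC2L, an ATP synthase-associated factor, was the member highest in DU145, with 1.83, 2.24 and 2.20 FPKM in 769-P and 7.11, 10.1 and 11.2 FPKM in DU145 (1.69, standard error 0.17, adjusted p = 0.00145). ATP5B, the partner of ATP5A1 in the catalytic head, had a mean difference over the control and siRNA pairs of 0.04, against -1.20 for ATP5A1. These subunits of the same head thus differed between the lines by unlike amounts.

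In complex I, 5 genes were lower in DU145 and 3 higher. NDUFS5, an accessory subunit, had 238, 289 and 233 FPKM in 769-P and 96.6, 81.9 and 89.0 FPKM in DU145 (limma log2 difference -1.44, standard error 0.16, adjusted p = 0.00180). NDUFA1 differed by -0.84 (adjusted p = 0.00731), NDUFA9 by -0.91 (adjusted p = 0.0269), NDUFA10 by -0.70 (adjusted p = 0.0197) and NDUFB7 by -0.65 (adjusted p = 0.0158). NDUFB1 was higher by 1.13 (adjusted p = 0.0430), NDUFS7, which carries an iron-sulfur cluster next to the ubiquinone site, by 0.71 (adjusted p = 0.0180) and NDUFS6 by 0.67 (adjusted p = 0.0226). The 3 NDUFB1 pairs ranged from 0.71 between the controls to 1.66 between the siRNA 2 libraries.

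In complexes II, III and IV 2 of 4, 2 of 8 and 3 of 11 genes were called, or 50%, 25% and 27.3%. The shares were 22.2% in complex I and 29.4% in complex V, against 42.1% of all genes. SDHD (0.80, adjusted p = 0.0289) and SDHA (0.53, adjusted p = 0.0445) were higher in DU145 by limma. With median centring neither passed (adjusted p = 0.0531 and 0.0863), and SDHC passed as lower in DU145 (-0.53, standard error 0.15, adjusted p = 0.0314). With quantile normalization SDHD and SDHA passed as higher (0.735 and 0.493) and SDHC did not pass (-0.438). Which complex II genes were called thus depended on the scaling, while SDHD, SDHA and SDHC each kept their sign. UQCRB (-0.79, adjusted p = 0.0119) and UQCRH (-0.48, adjusted p = 0.0399) of complex III were lower. COX7B (-1.03, standard error 0.18, adjusted p = 0.00758), COX6C (-0.77, adjusted p = 0.0206) and COX5B (-0.69, adjusted p = 0.0205) of complex IV were lower as well. COX7B, a small structural subunit, had 204, 152 and 192 FPKM in 769-P and 95.6, 77.8 and 94.9 FPKM in DU145. Past 1.5-fold in all 3 pairs, 2 of the 76 genes were higher in DU145 (NDUFB1 and ATP5S) and 6 lower (NDUFS5, NDUFA1, UQCRB, COX7B, ATP5A1 and ATP5G3), against 22.0% and 10.9% of all genes. By sign in all 3 pairs 20 were higher and 36 lower, against 45.5% and 29.0%. Calls for ATP5A1, ATP5G3, ATP5S, COX7B, NDUFA1 and NDUFS5 were kept in all 11 alternative fits, and without siRNA 1 of 769-P these 6 were the ones left. Those for NDUFB1 and SDHA were kept in 4 of the 11, those for SDHD and UQCRH in 5, and those for the other called genes in 6 to 9.

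**Figure D5:**
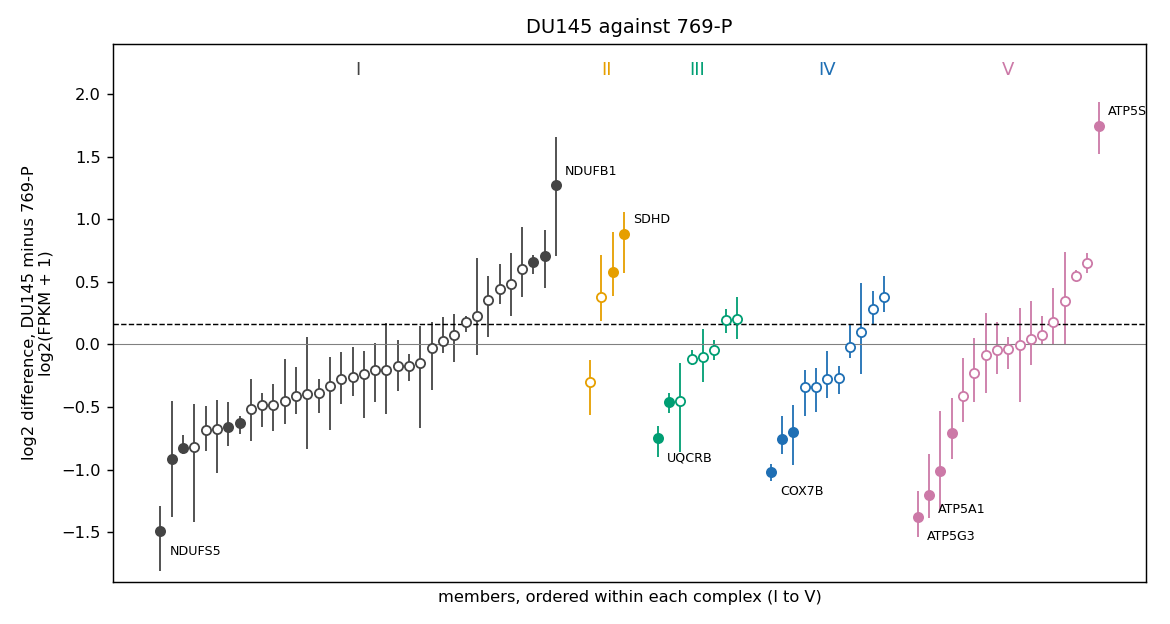
Log2 difference DU145 minus 769-P of the 76 genes, on log2(FPKM + 1), ordered within each complex. Points are means of the control, siRNA 1 and siRNA 2 pairs, lines span the 3 pairs, filled points passed an adjusted p of 0.05 by limma, and the dashed line is the median of all genes (0.16). ATP5S is highest and NDUFS5 lowest.

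Subunits that the symbol rule misses were set beside these. CYC1, cytochrome c1 of complex III, which takes its electrons from the Rieske protein, had 282, 288 and 286 FPKM in 769-P and 196, 158 and 186 FPKM in DU145, so it did not follow UQCRFS1. NDUFAB1, the acyl carrier protein of complex I, CYCS, the electron carrier cytochrome c, C14orf2, a small complex V subunit, NDUFA4L2 and ATPIF1, the ATP synthase inhibitor, completed the list of 6, of which none passed 1.5-fold with both siRNAs in either line. ATPIF1 had 66.1, 54.7 and 78.8 FPKM in 769-P and 105, 120 and 184 FPKM in DU145, so it lay above the control with both siRNAs in DU145 and with siRNA 2 alone in 769-P.

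Of 43 assembly factors 0 were higher and 2 lower by 1.5-fold with both siRNAs in 769-P (COX18 and NDUFAF4), and 1 was higher (UQCC1) and 0 lower in DU145. By this rule 3.6% of all genes tested were higher and 3.73% lower in 769-P, and 4.72% and 1.19% in DU145, so 2 of 43 genes (4.65%) was near the share of all genes. UQCC1, a complex III assembly factor, had 28.3, 40.7 and 33.0 FPKM in 769-P and 15.6, 24.0 and 24.5 FPKM in DU145. TTC19, which clears fragments of the Rieske protein from complex III, had 16.2, 11.6 and 12.0 FPKM in 769-P and 5.02, 3.47 and 2.92 FPKM in DU145. COX17, a copper chaperone of complex IV, had 28.3, 59.5 and 35.1 FPKM in 769-P and 32.1, 40.1 and 66.1 FPKM in DU145. Its high library was siRNA 1 in 769-P and siRNA 2 in DU145. COX18, which inserts a complex IV subunit into the membrane, had log2 fold changes of -0.68 and -0.82 in 769-P and -0.04 and -0.32 in DU145.

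None of the 13 regulators of respiratory genes tested passed 1.5-fold with both siRNAs in either line. TFAM, the packaging and transcription factor of mitochondrial DNA, had 17.0, 11.0 and 6.74 FPKM in 769-P and 6.38, 7.43 and 4.97 FPKM in DU145. GABPA had log2 fold changes of 0.17 and -0.56 in 769-P and 0.71 and 0.20 in DU145, and TFB2M had -0.31 and -0.32, and -0.30 and -0.31. TFB1M had mean log2 fold changes of -0.19 in 769-P and -0.47 in DU145.

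Among 22 enzymes of the tricarboxylic acid cycle and pyruvate entry, 0 were higher and 1 lower (PDK3) in 769-P and 1 higher (PC, pyruvate carboxylase) and 0 lower in DU145 by that rule, where 1 of 22 genes is 4.55%, against 3.73% of all genes lower in 769-P and 4.72% higher in DU145. DLAT, a pyruvate dehydrogenase subunit, had mean log2 fold changes of -0.67 in 769-P and -0.32 in DU145, IDH3A -0.77 and -0.09, and PDK2, a kinase that restrains pyruvate dehydrogenase, 0.50 and 0.60. Of 26 import, channel and chaperone genes, 1 was higher (LONP1) and 2 lower (TOMM70A and the outer membrane channel VDAC1) in 769-P and 1 higher (LONP1) and 0 lower in DU145. That is 3.85% higher and 7.69% lower in 769-P, against 3.6% and 3.73% of all genes, and 3.85% higher in DU145, against 4.72%. LONP1, the matrix protease, had 49.9, 84.5 and 87.3 FPKM in 769-P and 50.6, 126 and 116 FPKM in DU145, so all 4 siRNA libraries lay above both controls. LONP1 was named for its large mean change, so this is a description. TOMM70A, an import receptor, had 26.8, 13.6 and 14.1 FPKM in 769-P and 10.7, 7.27 and 8.13 FPKM in DU145. TIMM17A, a channel subunit of the inner membrane translocase, had 61.3, 23.5 and 47.3 FPKM in 769-P and 37.8, 12.7 and 37.4 FPKM in DU145, so that siRNA 1 gave the lowest library in both lines, as for UQCRFS1. TIMM9 had 10.2, 6.05 and 9.13 FPKM in 769-P and 20.5, 7.60 and 14.1 FPKM in DU145.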

How the data were processed

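Polyadenylated RNA of 6 libraries was sequenced as 100-bp paired-end reads. TopHat2 placed the reads on hg19, Cufflinks gave the FPKM values that the authors deposited, and the submitters' processing notes add FastQC and cutadapt. The versions and the annotation are not given in the sources used here. The labels and the paper differ on the library kit, the amount of RNA and the number of replicates, and the labels were followed. Read counts cannot be had from FPKM, so the depth behind a value is unknown and no count test was used. FPKM of rows with the same symbol were summed. Some rows carry several symbols: ATP5E shares its row with SLMO2 and ATP5J2 with PTCD1, and NDUFC2 was left out for that reason. Genes averaging at least 1 FPKM over the libraries were analysed on log2(FPKM + 1), which understates changes at low levels. The 4 groups were fitted with limma 3.58.1 (R 4.3.3) and a trend (2 residual degrees of freedom), each control library being assumed to vary like the siRNA pairs. Positions and transcript lengths came from GENCODE release 44 on GRCh37, matched for all 76 genes through RefSeq synonyms. The members, gene lists and tests were chosen with earlier results of these data known. Genes were named by rule: per complex, the highest level, the highest and lowest change in each line and the highest and lowest difference between lines; all genes called by fold or limma; the SDH genes and isoform pairs; and up to 4 genes of each other list with the largest mean absolute change. NDUFAF4, PDK3, PC, VDAC1, NDUFB3 and the ATP5J2 row were named after their values were seen. Results for some genes that the rule names are not reported here. Alternatives were a pseudocount of 0.1, no filter or a minimum of 5 FPKM, median, quantile and length-decile centring, subunits only, the highest row per symbol, no trend, the siRNA number as a block, and leaving out libraries.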

Additional observations from a re-analysis of the deposited data

Results flagged for a closer look

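In 5 genes both siRNA libraries of one line lay above the control and both of the other line lay below it. NDUFB3, an accessory subunit of complex I, had log2 fold changes of -0.27 and -0.33 in 769-P and of 0.31 and 0.15 in DU145, a mean change in DU145 that exceeded that in 769-P by 0.53. ATP5F1, the b subunit of complex V, had -0.10 and -0.27 in 769-P and 0.03 and 0.52 in DU145, a difference of 0.46. COX7A2 had -0.15 and -0.04 in 769-P and 0.17 and 0.33 in DU145, a difference of 0.35. The joint row of ATP5J2 and PTCD1 had -0.07 and -0.02 in 769-P and 0.10 and 0.49 in DU145, a difference of 0.34. COX8A had 0.12 and 0.06 in 769-P and -0.17 and -0.15 in DU145, a difference of -0.25. The rule of opposite signs is itself no test, and the difference of the knockdown between the lines in the limma fit had an adjusted p of 0.9993 for each of them. With median centring COX8A kept its signs (0.15 and 0.19 in 769-P, -0.28 and -0.29 in DU145), and so did NDUFB3 (-0.24 and -0.20 in 769-P, 0.20 and 0.0069 in DU145). COX7A2 went to 0.09 with siRNA 2 in 769-P, ATP5F1 to -0.08 with siRNA 1 in DU145 and the ATP5J2 row to 0.10 with siRNA 2 in 769-P, which ended the pattern in these 3. With quantile normalization COX8A and COX7A2 kept their signs, whereas NDUFB3 was at -0.05 with siRNA 2 in DU145, ATP5F1 at -0.09 with siRNA 1 in DU145 and the ATP5J2 row at 0.05 with siRNA 2 in 769-P. Of the 76 genes 4 were higher in DU145 and lower in 769-P and 1 the reverse, against 10.4% and 3.39% of all genes tested.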

How the results depend on the processing

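Values moved mainly with the scaling. Median centring left 0 members past 1.5-fold in DU145 (higher) and in 769-P (lower), gave 16 higher and 40 lower with both siRNAs in DU145 and 31 higher in 769-P, and medians of -0.11 for all members, -0.11 for complex I and -0.11 for complex III in DU145 and of 0.041 for all members, 0.14 for complex III, -0.013 for complex IV and -0.17 for complex V in 769-P. Between lines it gave 16 members lower past 1.5-fold, medians of -0.39 for all members, -0.31 for complex III, -0.48 for complex IV and -0.24 for complex V, and 32 limma calls, 3 higher and 29 lower. Quantile normalization gave 0 higher and 1 lower past 1.5-fold in DU145, 0 lower in 769-P, 15 higher and 41 lower by sign in DU145, medians of -0.14 for all members, -0.14 for complex I, -0.14 for complex III and -0.17 for complex IV there and of 0.024 for complex III in 769-P, and 13 members lower and 32 limma calls between lines. Centring by length decile gave 0 higher past 1.5-fold and 32 lower by sign in DU145, -0.070 for complex III there and -0.19 for complex V in 769-P. Without the filter 2 members were lower in DU145, complex IV and complex V had medians of 0 and -0.19 in 769-P, and limma called 13 between lines. With subunits only 1 member was higher past 1.5-fold between lines. Under these settings, fold and sign counts were made for the members alone and have no share of all genes beside them. The same holds for the sign counts with 1 siRNA left out. The cause of these shifts was not tested.

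With 1 siRNA left out, the members past 1.5-fold ranged from 1 to 2 higher and 0 to 9 lower in DU145 and from 0 to 1 higher and 1 to 6 lower in 769-P, and those between lines from 2 to 5 higher and 7 to 14 lower. By sign the ranges were 35 to 55 higher and 21 to 41 lower in DU145 and 21 to 37 higher and 39 to 55 lower in 769-P. Medians ranged from -0.012 to 0.096 for complex I and 0.014 to 0.087 for complex III in DU145, and from -0.013 to 0.032 for complex III, -0.091 to -0.020 for complex IV and -0.24 to -0.17 for complex V in 769-P. Limma calls between lines ranged from 6 to 16, with 6 without 769-P siRNA 1, 7 without 769-P siRNA 2 and 11 without DU145 siRNA 1.

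In the limma fit with siRNA numbers as a replicate block, the test called 26 members between lines and 0 for the knockdown in either line or its difference. The lines share the siRNA numbers by label only. Depth per value is unknown and each line has 1 control library, which enters every fold change of that line.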
